A study of Mus musculus with 73 samples.

Results

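The 4 Hox clusters of the mouse were followed through 27 reduced representation bisulfite sequencing (RRBS) libraries of liver, labelled as hepatocyte DNA. RRBS cuts DNA at CCGG with the enzyme MspI and reads, after bisulfite conversion, the share of cytosines that carry a methyl group. The deposited table gives 1 level per 100 bp tile. Tiles were taken by position alone, on the mm9 build, when they started inside chr6:52100000-52215000 (Hoxa), chr11:96050000-96235000 (Hoxb), chr15:102745000-102875000 (Hoxc) or chr2:74495000-74610000 (Hoxd). This gave 1346 of the 817277 tiles of the table, 351 in Hoxa, 377 in Hoxb, 301 in Hoxc and 317 in Hoxd. Of these, 809 had a value in all 27 libraries (210, 218, 172 and 209 in the same order), 499 had a value in some libraries and 38 had none. Levels below are over the 809 tiles unless stated otherwise, and each test used the tiles with a value in every library it compared.

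The study removed the forkhead factors FoxA1, FoxA2 and FoxA3, which open chromatin in liver, in development or in adult mice. The age series held 4 developmental double nulls and 4 controls, 1 of each at every age sampled (20 days, 8 weeks, 4 months, 6 months). Single alleles were followed in 2 livers labelled FoxA1L/L;FoxA2L/+ and 2 labelled FoxA1L/+;FoxA2L/+, both depleted in development and 8 weeks old, where L marks an allele that Cre removes. Adult loss of all 3 genes was sampled in 3 triple nulls 7 days after Cre (9 weeks old) and 2 triple nulls 13 days after Cre (12 weeks old). Their controls, 3 at day 7 and 2 at day 13, were FoxA1L/L;FoxA2L;L;FoxA3-/- mice given GFP, so that controls and nulls alike lacked FoxA3. Another 3 livers lost FoxA1 and FoxA2 in adulthood and then underwent partial hepatectomy, with 2 controls given AAV GFP before the same operation, all 12 weeks old. FoxA binding sites were read by whole-genome bisulfite sequencing (WGBS) in 2 developmental double nulls (Foxa1L/L;2L/L Alfp Cre), 2 adult double nulls (Foxa1L/L;2L/L AAV Cre) and 2 controls (Foxa1L/L;2L/L). The labels state purified hepatocytes for WGBS. HNF6 binding was given as 7 peak lists from the same 3 genotypes. Alfp Cre acts in the developing liver and viral Cre, under the Tbg promoter, in hepatocytes. Any cells that escaped Cre would remain in the samples, and RRBS cannot tell a level shared by all cells from a mixture of cells.

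Hox genes encode homeodomain transcription factors that give cells their position along the body axis. They lie in order along each cluster, and in many tissues they are silenced by Polycomb, whose mark H3K27me3 sits on long CpG-rich stretches that mostly stay free of DNA methylation. Gain of DNA methylation at such CpG islands is known from some cancers and from ageing tissue. FoxA factors in hepatocytes bind mainly at liver enhancers.

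The density of CpGs, the dinucleotide that RRBS reads, is the feature of these clusters that the assay depends on, and it is shown here by 1 promoter for each cluster, the one with most CpGs among those with a RefSeq sequence. Promoters run from 250 bases before to 50 bases after the start of the gene, 5′ to 3′ on the coding strand, in GRCm38.p6, with each CG in capitals. RefSeq lists 39 Hox genes in the 4 clusters, of which 22 matched a promoter sequence, 9 in Hoxa, 3 in Hoxb, 1 in Hoxc and 9 in Hoxd.
Hoxa13: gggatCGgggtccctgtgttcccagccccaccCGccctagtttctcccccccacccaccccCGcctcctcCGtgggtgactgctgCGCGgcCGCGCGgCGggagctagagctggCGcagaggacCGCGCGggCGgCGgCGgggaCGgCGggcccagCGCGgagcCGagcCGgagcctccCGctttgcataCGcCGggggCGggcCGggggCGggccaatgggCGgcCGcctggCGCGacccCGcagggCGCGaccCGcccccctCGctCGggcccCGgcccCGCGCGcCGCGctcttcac
Hoxb4: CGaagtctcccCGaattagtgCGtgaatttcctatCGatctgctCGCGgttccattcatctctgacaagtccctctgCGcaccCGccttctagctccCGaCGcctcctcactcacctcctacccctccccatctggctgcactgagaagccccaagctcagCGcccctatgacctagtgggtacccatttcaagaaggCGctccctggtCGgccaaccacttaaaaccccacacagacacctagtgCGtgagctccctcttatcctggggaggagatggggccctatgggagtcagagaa
Hoxc4: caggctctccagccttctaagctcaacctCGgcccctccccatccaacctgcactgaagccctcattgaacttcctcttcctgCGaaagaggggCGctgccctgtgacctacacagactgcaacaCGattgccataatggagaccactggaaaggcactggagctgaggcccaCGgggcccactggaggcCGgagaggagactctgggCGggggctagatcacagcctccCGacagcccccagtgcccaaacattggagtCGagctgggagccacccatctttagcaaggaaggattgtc
Hoxd13: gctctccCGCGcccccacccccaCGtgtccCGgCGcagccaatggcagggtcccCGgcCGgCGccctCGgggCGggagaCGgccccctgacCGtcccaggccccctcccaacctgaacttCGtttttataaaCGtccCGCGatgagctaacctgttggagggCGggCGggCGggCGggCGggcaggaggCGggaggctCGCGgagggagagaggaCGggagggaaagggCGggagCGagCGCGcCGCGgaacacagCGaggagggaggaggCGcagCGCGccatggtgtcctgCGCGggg
Hoxa13, the gene at the posterior end of its cluster, is at chr6:52260831-52261130 on the minus strand and holds 45 CpGs, and 1.93% of all 32851 mouse promoters of that length hold at least as many. Hoxb4 (chr11:96318017-96318316, plus strand) holds 14, Hoxc4 (chr15:103034145-103034444, plus strand) 9 and Hoxd13 (chr2:74667975-74668274, plus strand) 37. At least as many are held by 36.3%, 45.8% and 5.58% of all promoters in that order, so Hoxb4 and Hoxc4 do not stand out. Hox promoters had a median of 14.5 CpGs against 7 over all promoters. Of the 24 Hox promoters, 10 were in Hoxa, 3 in Hoxb, 1 in Hoxc and 10 in Hoxd. The MspI site CCGG was present in 19 of 24 (79.2%) against 52.8% of all promoters. The core forkhead motif TGTTTAC, searched on both strands, was in 0 of 24 Hox promoters and in 3.65% of all promoters. At that share few of 24 promoters would hold it, so the 0 says little about Hox promoters. Tiles are on mm9 and promoters on GRCm38, so no tile is assigned to a gene below.

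Tiles were dense: the table held 2.47 tiles per kb in the Hox windows, from 2.04 in Hoxb to 3.05 in Hoxa, against 0.338 per kb over the span of all chromosomes in the table. Levels of the Hox tiles were low in every library. The mean over the 809 tiles lay between 5.28% and 9.43% in the 27 libraries, where the mean over all 331959 tiles measured in every library lay between 52.4% and 57.5%. Median levels ran from 3.05% to 6.82% for Hox tiles and from 71.9% to 81.3% for all tiles. Averaged over libraries, 708 of 809 Hox tiles (87.5%) were below 10%, against 33.1% of all tiles, and 9 were at 50% or above, against 198085 of all tiles.

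**Figure D1:**
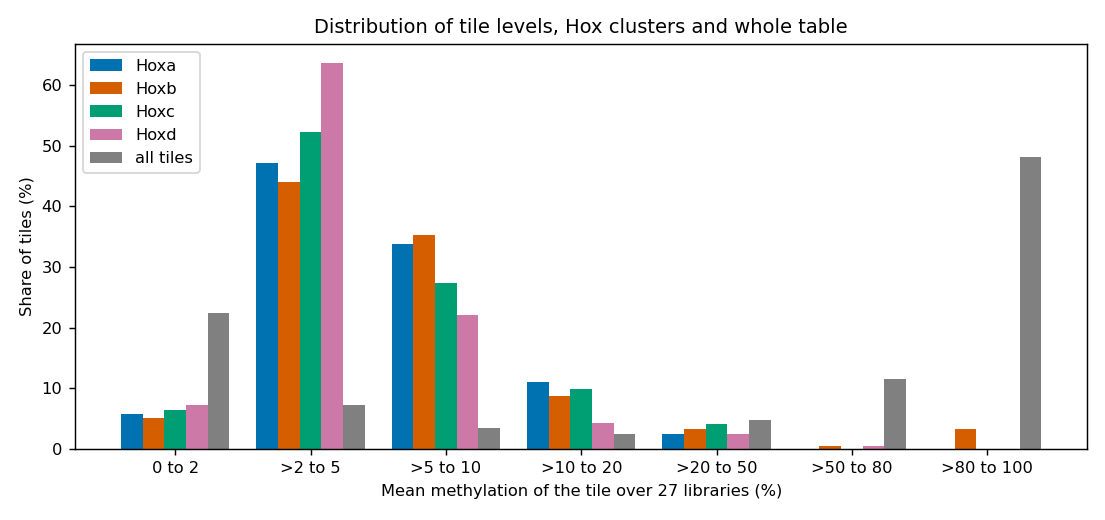
Share of tiles (y axis, percent) in 7 classes of mean methylation over 27 libraries (x axis, percent), for the 4 Hox clusters and all tiles of the table. Hox tiles gather between 2% and 10%, all tiles at 0% to 2% and above 80%.

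The low levels of the Hox tiles were not the lowest of the table. Only 49 of the 809 tiles (6.06%) were at 2% or below, whereas 22.4% of all tiles were. The class above 2% and up to 5% held 418 Hox tiles (51.7%) against 7.20% of all tiles, and its share was 63.6% in Hoxd, 52.3% in Hoxc, 47.1% in Hoxa and 44.0% in Hoxb. Among tiles with a mean under 10%, called low tiles from here on, the median was 4.01% for the 708 Hox tiles and 1.37% for all 109792. The quartiles did not meet: the lower quartile of low Hox tiles was 2.92% and the upper quartile of all low tiles was 2.53%. These are descriptions of levels, with no test, since each value is a mean over the same libraries.

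The same order held in each library. Median levels of low tiles were higher in the Hox clusters than in the whole table in 27 of 27 libraries, 5.06% to 6.25% against 2.54% to 3.30% in the 8 age series libraries and 2.69% to 3.57% against 0.420% to 0.719% in the other 19. Exact zeros were also rarer among low Hox tiles, at 4.80% to 8.05% of them in the 8 age series libraries, against 8.52% to 12.3% of all low tiles. In the other 19 libraries the gap was wider, 5.51% to 14.97% against 24.5% to 38.8%. The depth behind a tile is unknown, and how often a level of exactly 0 appears depends on it. Every age series library, null or control, had higher levels at low tiles than every other library, over the whole table as well as in the Hox clusters. Means over the 109084 low tiles outside the windows were 3.33% to 4.03% in the age series and 1.24% to 1.85% elsewhere, and age series libraries are therefore compared below mainly with each other.

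**Figure D2:**
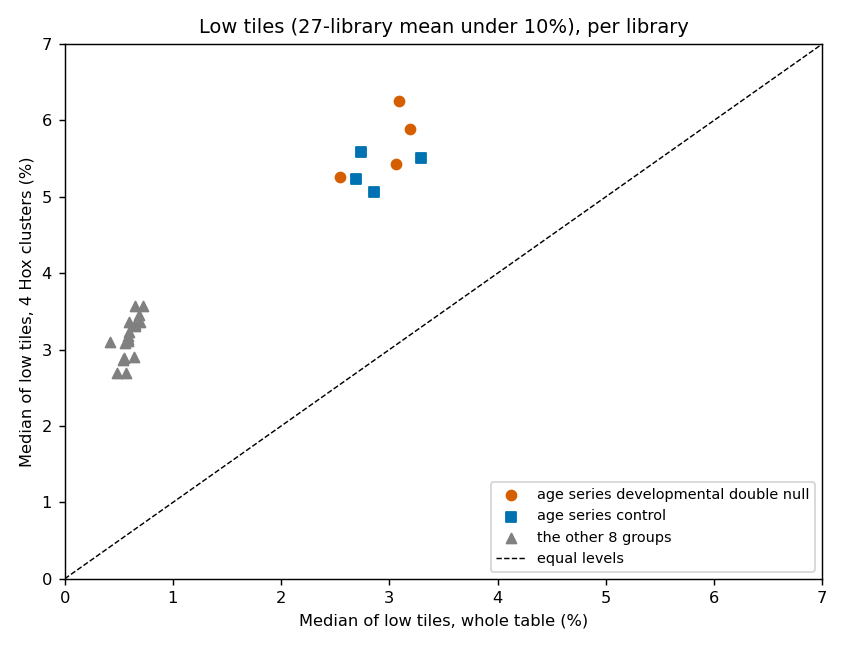
Median methylation of low tiles in each library, over the 4 Hox clusters (y axis, percent) and over the whole table (x axis, percent); each point is 1 library and the dashed line marks equal levels. All 27 points lie above the line, and the 8 age series libraries lie apart from the other 19.

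Among the clusters, Hoxb had the highest mean and Hoxd the lowest in 27 of 27 libraries. Averaged over the 27 libraries, the level was 6.30% ± 1.27 in Hoxa, 9.10% ± 1.30 in Hoxb, 6.30% ± 1.37 in Hoxc and 5.13% ± 1.21 in Hoxd (SD over libraries). Hoxa and Hoxc could not be ordered, with Hoxc above Hoxa in 16 libraries and below it in 11. When the 27 libraries are split by experiment, Hoxd averaged 6.91% ± 0.362 in the 8 age series libraries and 4.39% ± 0.284 in the other 19, and Hoxb 10.8% ± 0.514 and 8.38% ± 0.691. The rank of Hoxb rested partly on few tiles, as the map of the clusters shows: without the 7 methylated tiles described below, Hoxb was highest in 15 libraries, Hoxc in 9 and Hoxa in 3, with Hoxd still lowest in 27.

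**Figure D3:**
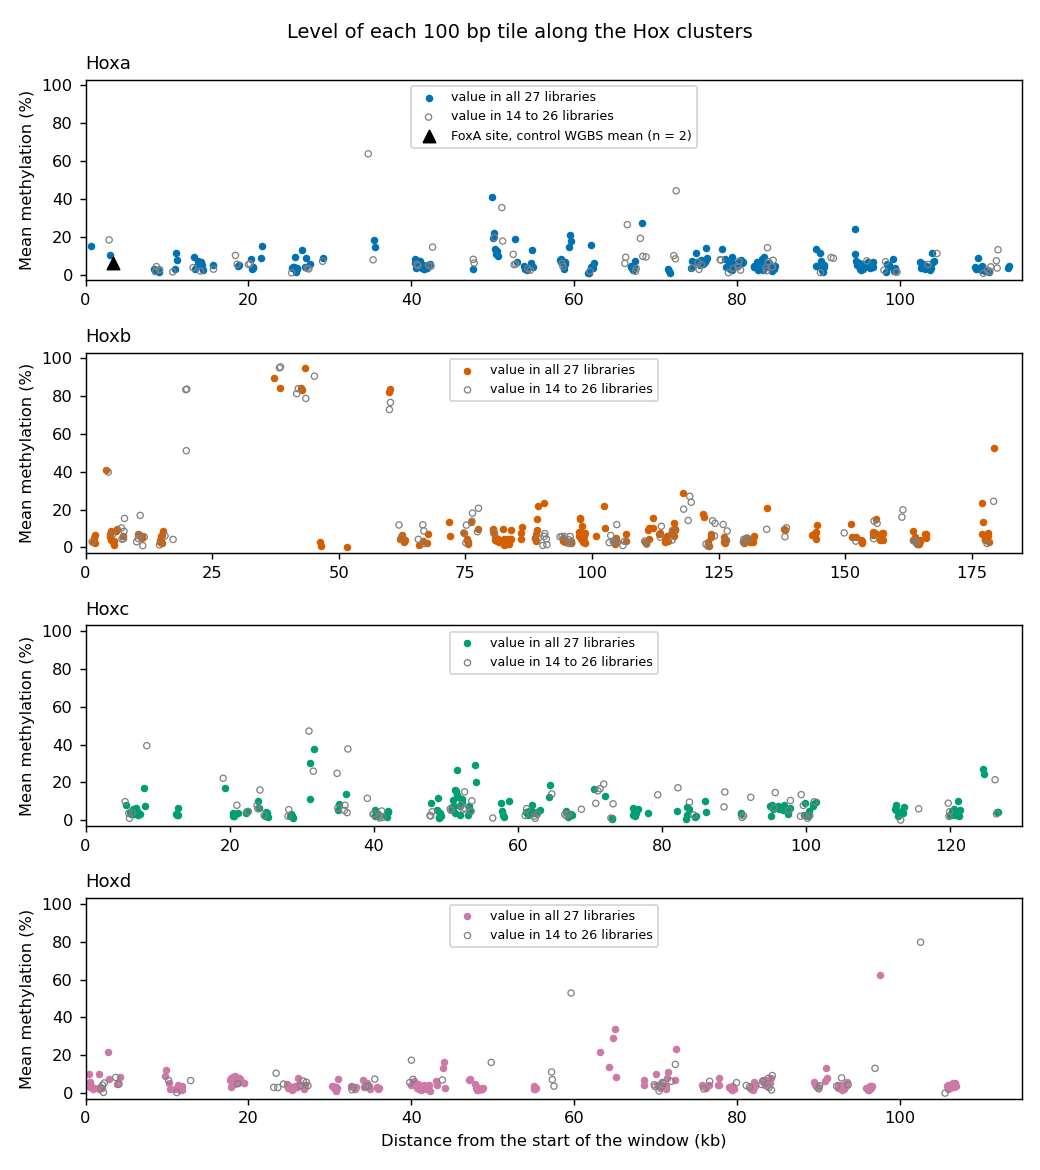
Mean methylation of each tile (y axis, percent) against its distance from the start of the window (x axis, kb), 1 panel for each cluster; filled points have a value in all 27 libraries, open points in 14 to 26, and the triangle is the FoxA site in control WGBS (mean, n = 2). Most tiles lie below 10%, and a run of tiles near 80% to 95% stands out in Hoxb between about 20 and 60 kb.

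Methylated tiles were rare and most of them lay in a single stretch of Hoxb. Over tiles with a value in at least 14 libraries, 23 had a mean of 50% or above, 19 of them in Hoxb, 3 in Hoxd and 1 in Hoxa. Of the 19, 18 fell within 40.5 kb, chr11:96069801-96110300, when methylated tiles up to 20 kb apart were joined, and their means ran from 51.1% to 95.4%. In the mouse genome Hoxb13, the most posterior gene, is set apart from Hoxb9 by a long gap; whether the stretch falls into it was not tested.

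Unmethylated tiles lay inside the stretch. Of its 21 tiles with at least 14 libraries, 3 were below 10%: chr11:96096301-96096400 at 2.742%, chr11:96096401-96096500 at 0.838% and chr11:96101701-96101800 at 0.462%. Over the 7 methylated tiles of the stretch with all 27 values, the mean was 86.0% ± 3.29 (SD, n = 27), from 77.8% to 92.3%. It was 88.9% ± 2.87 in developmental double nulls and 88.9% ± 2.69 in their controls (n = 4 each), 84.2% ± 5.54 in day 7 triple nulls and 84.0% ± 0.525 in day 7 controls (n = 3 each), 85.7% ± 2.80 in day 13 triple nulls and 86.3% ± 2.738 in day 13 controls (n = 2 each). After hepatectomy it was 82.9% ± 1.76 in adult double nulls (n = 3) and 83.6% ± 1.44 in controls (n = 2). In each pair the difference was below 1 SD of the pair's larger spread. Without these 7 tiles, the other 211 Hoxb tiles averaged 6.55% ± 1.27 over the 27 libraries.

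The tile with the highest mean differed in level between clusters. That of Hoxb, chr11:96093301-96093400 in the stretch, averaged 95.0% ± 5.46 and ran from 80.6% to 100%. In Hoxd the highest tile, chr2:74592501-74592600, was also the one that varied most, with a mean of 62.3% ± 15.8 and a range from 25.0% to 93.3%. Both ends of that range were reached beside partners of the same group: 25.0% in a FoxA1L/L;FoxA2L/+ liver and in a hepatectomy control, with partners at 57.1% and 50.0%, and 93.3% in a day 13 control, with its partner at 65.0%. In Hoxa the highest tile, chr6:52149901-52150000, averaged 41.0% ± 6.63 (27.2% to 55%). In Hoxc chr15:102776701-102776800 averaged 37.6% ± 10.1 (20.0% to 64.3%). No tile of Hoxa or Hoxc with a value in all 27 libraries reached a mean of 50%.

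Tiles that varied most elsewhere were also of intermediate level. Hoxb tile chr11:96168001-96168100 averaged 28.7% ± 13.2, with 75% in 1 FoxA1L/+;FoxA2L/+ liver and 25.0% in the other, and 5.26% in a day 13 control. Hoxc tile chr15:102869501-102869600 averaged 26.99% ± 11.2, with 12.0% in both day 13 controls and 55% in the developmental double null of 6 months. Hoxa tile chr6:52194401-52194500 averaged 23.9% ± 9.87, with 6.06% in a hepatectomy null and 44.0% in the age series control of 6 months. The median SD over the 27 libraries was 2.57 points for Hox tiles and 4.12 points for all tiles.

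Developmental loss of FoxA1 and FoxA2 was compared in the age series, which asks whether methylation of the clusters changes when FoxA is removed in liver development. The mean level of Hoxa was 8.45% ± 0.535 in developmental double nulls and 7.60% ± 0.509 in controls (SD, n = 4 each). Hoxc averaged 8.66% ± 0.717 in nulls and 7.80% ± 0.474 in controls, Hoxb 10.9% ± 0.726 and 10.7% ± 0.213, and Hoxd 7.04% ± 0.312 and 6.78% ± 0.403. In all 4 clusters the groups overlapped, and the mean over all tiles, 57.1% ± 0.428 in nulls and 56.5% ± 0.252 in controls, was also higher in nulls.

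**Figure D4:**
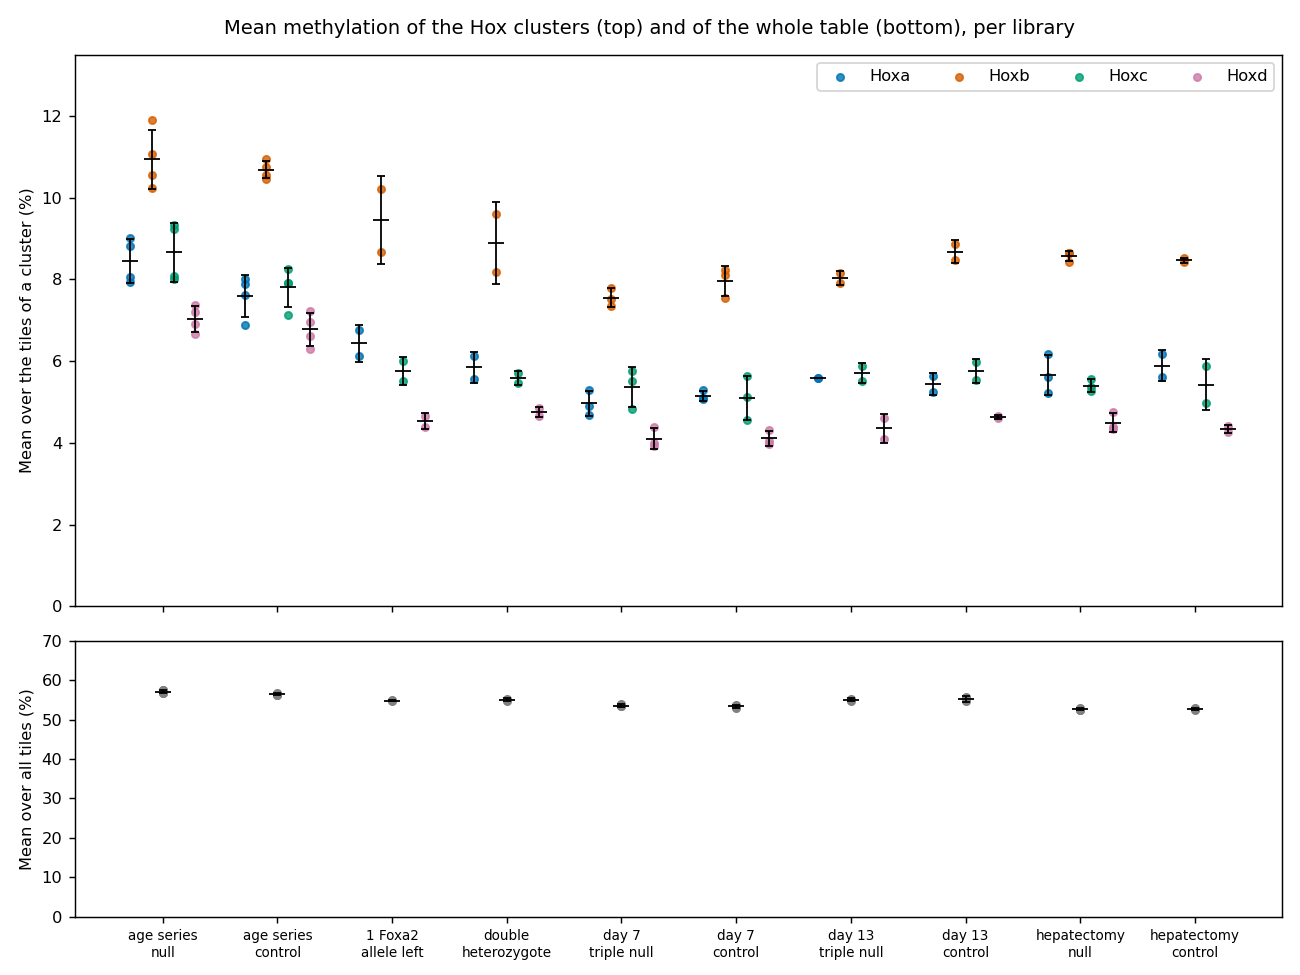
Mean methylation (y axis, percent) of each Hox cluster (top) and of all tiles (bottom) in each library, by group (x axis); points are libraries, bars the group mean ± SD; 1 Foxa2 allele left stands for FoxA1L/L;FoxA2L/+ and double heterozygote for FoxA1L/+;FoxA2L/+. Hoxb, its methylated stretch included, is highest and Hoxd lowest in all 27 libraries, and all clusters are higher in both age series groups than elsewhere.

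Age by age, the null lay above the control of the same age at 4 of 4 ages in Hoxa and Hoxc and at 3 of 4 in Hoxb and Hoxd, and over all tiles at 4 of 4. In Hoxa the null minus control difference was 1.06 points for the 20-day pair, 1.396 for the 8-week pair, 0.0433 for the 4-month pair and 0.933 for the 6-month pair. In Hoxc it was 0.876, 1.41, 0.164 and 0.975 points at the same ages. The pair of 8 weeks gave the largest difference in all 4 clusters, 1.14 points in Hoxb and 0.396 in Hoxd, and each age holds 1 library of a genotype. No test was made of these cluster means.

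Tile by tile, 2 of the 828 Hox tiles tested were higher in developmental double nulls and 0 were lower (limma on the percent scale, Benjamini-Hochberg adjusted p under 0.05 over 369462 tiles). Over all tiles 0.176% were called higher and 0.0625% lower, and the 2 Hox tiles make 0.242%, so the share was close to that of the table. Without adjustment, 75 Hox tiles were higher and 32 lower at p under 0.05, which is 9.06% against 5.59% of all tiles and 3.86% against 3.18%. Hoxa had 26 higher and 3 lower among 215, Hoxc 18 and 10 among 179, Hoxd 18 and 9 among 210, and Hoxb 13 and 10 among 224. The median difference was 0.43 points over Hox tiles and 0.28 over all tiles, 0.76 in Hoxa and 0.78 in Hoxc, and no Hox tile differed by 20 points or more.

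The first tile was chr11:96201301-96201400 in Hoxb. From the youngest to the oldest (20 days, 8 weeks, 4 months, 6 months) it stood at 11.9%, 10.3%, 12.5% and 9.76% in developmental double nulls, against 0%, 4.17%, 0% and 3.33% in controls. All 4 nulls were above all 4 controls, but the tile was picked by a test of these same values, so their separation adds no support. Values did not follow the order of age in either genotype. The difference was 9.23 points (SE 1.84, limma adjusted p = 0.0342).

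The other tile was chr6:52180301-52180400 in Hoxa. It stood at 16.9%, 13.7%, 10.96% and 14.9% in nulls of the same 4 ages, against 5.08%, 8.22%, 2.94% and 4.48% in controls. Again the groups did not overlap, in a tile picked by the same test. The difference was 8.95 points (SE 1.87, limma adjusted p = 0.0470). The Hoxb call was lost without the control of 20 days or 4 months or the null of 20 days, 8 weeks or 4 months (adjusted p 0.0543 to 0.0812), and the Hoxa call without the control of 20 days, 4 months or 6 months or the null of 20 days, 8 weeks or 6 months (0.0590 to 0.106). Over all alternatives the adjusted p ran from 0.0340 to 0.379 for the Hoxb tile and from 0.0281 to 0.546 for the Hoxa tile.

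**Figure D5:**
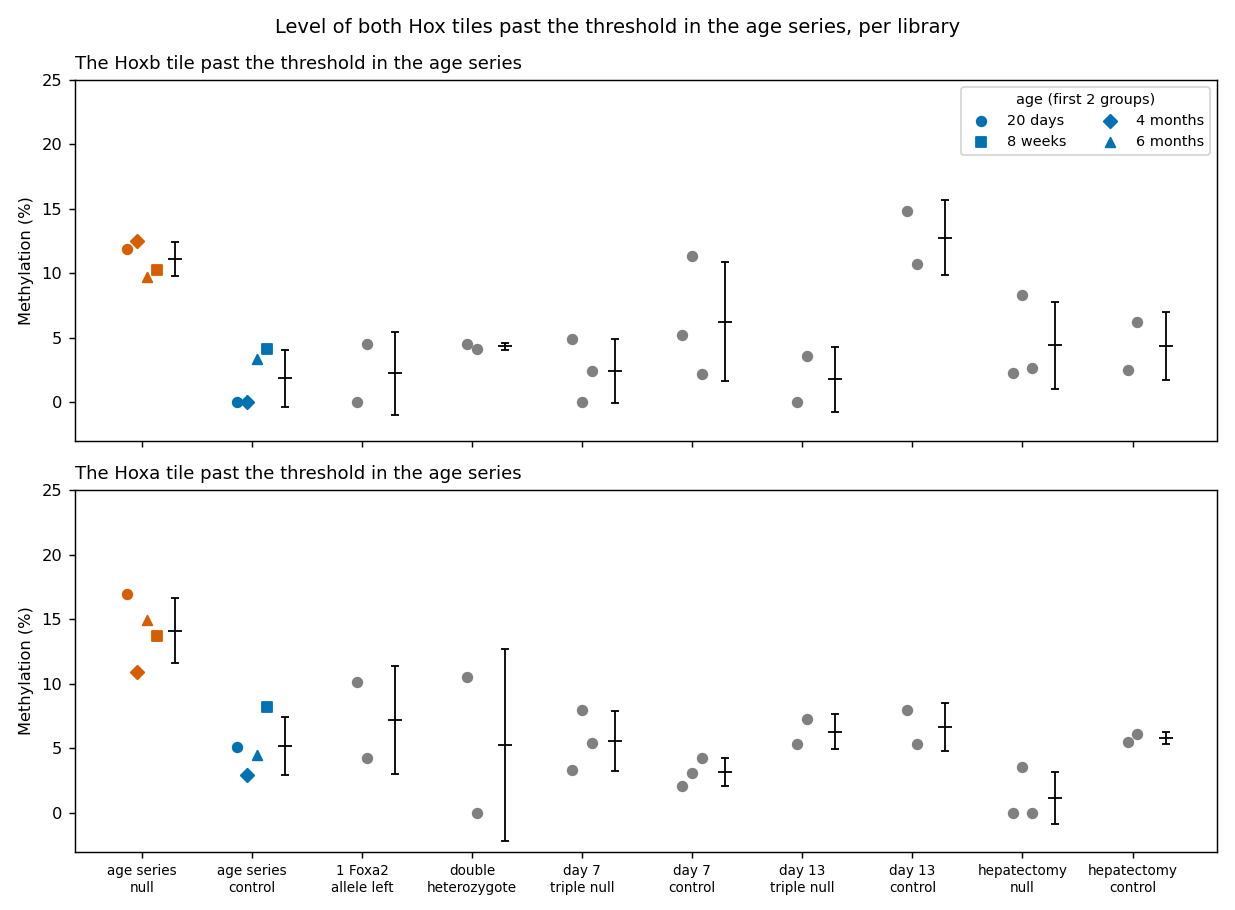
Methylation (y axis, percent) of the Hoxb tile (top) and the Hoxa tile (bottom) past the threshold in the age series, in all 27 libraries by group (x axis); points are libraries, symbols give the age in the first 2 groups, bars the group mean ± SD, with group names as in the plot of cluster means. The 4 nulls of the age series lie above the 4 controls in both panels, whose tiles were picked by the test of these groups. The Hoxb tile is lower in day 13 triple nulls than in day 13 controls.

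Neither tile passed the threshold in the adult experiments. The Hoxb tile stood at 0% and 3.57% in day 13 triple nulls, against 14.8% and 10.7% in day 13 controls, a difference of -10.98 points (SE 2.62, limma adjusted p = 0.470). At day 7 it was 4.92%, 0% and 2.44% in triple nulls, against 5.26%, 11.3% and 2.22% in controls (-3.82 points, SE 2.14), and after hepatectomy the difference was 0.06 points (SE 2.39). For the Hoxa tile the difference was 2.40 points (SE 2.18) at day 7, -0.39 (SE 2.67) at day 13 and -4.63 (SE 2.44) after hepatectomy, none past the threshold. No test was made of adult against developmental differences.

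The widest differences in the age series did not pass. Hoxc tile chr15:102799201-102799300 was at 16.7%, 19.4%, 11.1% and 17.9% in nulls from 20 days to 6 months, against 40.9%, 18.8%, 35.7% and 28.9% in controls (-14.81 points, SE 6.01, adjusted p = 0.447). Hoxb tile chr11:96161101-96161200 differed by -11.28 points (SE 5.48), from 0% to 10.0% in nulls against 43.75% in the control of 20 days and 6.67% to 9.09% in the other 3 controls, and by -2.30 points without that control. Hoxd tile chr2:74567501-74567600 differed by 10.25 points (SE 5.81), from 13.3% to 42.1% in nulls against 18.0% to 23.1% in controls.

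Loss of FoxA in adult mice gave no Hox tile past the threshold. At day 7 after Cre, 0 of 1062 Hox tiles were higher and 0 lower in triple nulls than in controls (limma; 0.00125% and 0.00291% of all tiles were called). At an unadjusted p under 0.05, 12 were higher and 17 lower, 1.13% and 1.6% against 2.3% and 1.8% of all tiles. At day 13 after Cre, 0 of 991 were called in either direction (0.00271% higher and 0.00475% lower over all tiles), with 26 and 36 unadjusted, 2.62% and 3.63% against 2.09% and 2.59% of all tiles. After partial hepatectomy, when remaining hepatocytes divide, 0 of 1053 were called in either direction (0.00104% and 0.000828% over all tiles), with 8 and 15 unadjusted, 0.76% and 1.42% against 2.37% and 2.3% of all tiles. In a test of the day 7 difference against the day 13 difference, 0 of 970 Hox tiles passed in either direction (limma; 0.000243% and 0.000729% over all tiles), with 26 and 17 unadjusted, against 2.32% and 1.63% of all tiles. Median differences over Hox tiles were -0.06 points at day 7, -0.25 at day 13 and 0 after hepatectomy, with median standard errors of 2.13, 2.48 and 2.36 points for a tile.

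Cluster means were close after adult loss. At day 7 Hoxa averaged 4.97% ± 0.314 in triple nulls and 5.15% ± 0.125 in controls, and Hoxd 4.10% ± 0.256 and 4.11% ± 0.177 (SD, n = 3 each). Wider day 7 differences were those of Hoxb, 7.55% ± 0.225 in triple nulls and 7.96% ± 0.365 in controls, and Hoxc, 5.37% ± 0.480 and 5.10% ± 0.533. After hepatectomy Hoxc averaged 5.40% ± 0.153 in adult double nulls (n = 3) and 5.43% ± 0.632 in controls (n = 2). Over day 7, day 13 and hepatectomy, groups did not overlap in 1 cluster, at day 13: Hoxb was at 7.91% and 8.16% in triple nulls, against 8.47% and 8.87% in controls. With 2 libraries a group, such a separation often arises without any difference, and it was not tested. The means over all tiles overlapped, at 55.3% and 54.9% in triple nulls, against 54.8% and 55.7% in controls. Of the 270 Hoxb tiles tested, 18 (6.67%) were lower and 5 (1.85%) higher at an unadjusted p under 0.05, against 2.59% and 2.09% of all tiles, and the tile nearest the threshold had an adjusted p of 0.0918 by limma.

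Partial loss of the alleles in development was compared with the age series controls, and genotype, age and experiment cannot be told apart in it: the mutants are 8 weeks old and the controls 20 days to 6 months. In FoxA1L/L;FoxA2L/+ livers 2 of 859 Hox tiles were higher and 42 lower than in age series controls (limma adjusted p under 0.05; 0.106% and 5.9% of all tiles). In FoxA1L/+;FoxA2L/+ livers 0 of 858 were higher and 44 lower (0.12% and 5.97% of all tiles). At an unadjusted p under 0.05 the counts were 18 higher and 191 lower in FoxA1L/L;FoxA2L/+ (1.24% and 18.3% of all tiles), and 13 and 203 in FoxA1L/+;FoxA2L/+ (1.34% and 17.9%). Lower Hox tiles past the threshold thus made up shares near those of the whole table, 4.89% and 5.13% in the same order. Unadjusted, the lower Hox tiles made up 22.2% and 23.7%, above the shares of the whole table. Of the tiles past the threshold, 41 of the 42 and 43 of the 44 had a mean under 10% over the 27 libraries. Low tiles outside the windows averaged 1.58% to 1.85% in FoxA1L/L;FoxA2L/+ and 1.52% to 1.66% in FoxA1L/+;FoxA2L/+, against 3.43% to 4.03% in the controls. With each library centred on that mean, 0 Hox tiles were called in either direction in both comparisons. The share of all tiles called after centring was not read, so whether this loss of calls is particular to Hox tiles was not tested. Most calls also rested on both mutants: lower tiles numbered 5 without the first FoxA1L/L;FoxA2L/+ liver and 2 without the second, and 3 without 1 FoxA1L/+;FoxA2L/+ liver, whichever was left out.

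Of the largest of these differences, Hoxd tile chr2:74558201-74558300 was at 3.03% and 8.33% in FoxA1L/+;FoxA2L/+ livers, against 19.4% to 31.6% in the 4 controls (-19.99 points, SE 4.18, limma adjusted p = 0.00875, and 0.127 without the first and 0.0576 without the second mutant). Livers of FoxA1L/L;FoxA2L/+, which lack more alleles, were at 26.1% and 22.7%, within the range of the controls. The difference between the mutants was 18.73 points (SE 4.81) and did not pass (adjusted p = 0.387). Hoxb tile chr11:96132601-96132700 was at 1.52% and 1.08% in FoxA1L/L;FoxA2L/+ and at 5.41% and 2.7% in FoxA1L/+;FoxA2L/+, against 7.14% to 16.7% in controls, differences of -10.52 points (SE 2.13, adjusted p = 0.00744) and -7.74 points (SE 2.13, adjusted p = 0.0346). Without 1 of its mutants the adjusted p was 0.0656 to 0.0815 for the first and 0.118 to 0.290 for the second, which was also lost without the control of 4 months (0.0604) or 6 months (0.0751). Within the methylated stretch, chr11:96087301-96087400 was at 73.3% and 87.0% in FoxA1L/L;FoxA2L/+ against 91.3% to 100% in controls (-15.76 points, SE 3.97, adjusted p = 0.0230). Without the first of these mutants the difference was -8.95 points (adjusted p = 0.368), and without the control of 8 weeks the adjusted p was 0.0576. Among the 10 largest differences of each comparison past the threshold, the other lower tiles differed by -9.85 to -5.50 points in FoxA1L/L;FoxA2L/+ and by -11.62 to -6.36 points in FoxA1L/+;FoxA2L/+.

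The 2 tiles that were higher in FoxA1L/L;FoxA2L/+ lie in Hoxa. Tile chr6:52182901-52183000 was at 8.70% and 11.1%, against 1.96% to 6.02% in age series controls (5.69 points, SE 1.51, limma adjusted p = 0.0295, and 0.0838 without the first mutant, 0.284 without the second and 0.0622 without the control of 4 months). Tile chr6:52179301-52179400 was at 13.3% and 3.13%, against 0% in 3 controls and 2.08% in the other (7.71 points, SE 2.06, adjusted p = 0.0306). Without the first of these mutants, at 13.3%, the second difference was 2.60 points (adjusted p = 0.602), and the call was also lost without the control of 20 days or 8 weeks (adjusted p up to 0.0616). Both are within 3 kb of the Hoxa tile called in the age series, which differed by 2.03 points (SE 2.30) in FoxA1L/L;FoxA2L/+ and did not pass. Also within 3 kb, chr6:52183101-52183200 was called lower in FoxA1L/+;FoxA2L/+ (-3.75 points, SE 1.08). Set against each other directly, the mutants, which were sampled at the same age, gave 0 of 973 Hox tiles in either direction (0.00577% higher and 0.00485% lower over all tiles), with 37 and 24 at an unadjusted p under 0.05, against 2.59% and 2.98% of all tiles.

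Age was tested within the age series, as a slope in points per doubling of age with genotype in the model. No tile passed, 0 of 828 Hox tiles and 0% of all 369462 in either direction (limma), with 28 Hox slopes above 0 and 18 below 0 at an unadjusted p under 0.05, 3.38% and 2.17% against 4.76% and 3.9% of all tiles. The median slope was 0.15 points per doubling over Hox tiles and 0.09 over all tiles. The difference of the slopes between nulls and controls also gave 0 of 828 (limma; 0% of all tiles), with 25 and 34 unadjusted against 2.83% and 2.73% of all tiles. From 20 days to 6 months the mean over all Hox tiles was 8.25%, 9.43%, 8.57% and 8.96% in nulls, against 7.78%, 8.36%, 8.42% and 8.49% in controls.

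The largest slope of each cluster was read next. In Hoxc, tile chr15:102764301-102764400 stood at 14.5%, 15.2%, 22.0% and 27.1% in developmental double nulls from the youngest to the oldest, against 4.76%, 16.1%, 23.1% and 35.8% in controls. Its values followed the order of age in both genotypes, with a slope of 6.41 points per doubling (SE 1.39), and it did not pass (limma adjusted p = 0.225; the smallest of any Hox tile was 0.198). The slope in nulls minus that in controls was -5.11 points per doubling (SE 2.24, limma adjusted p = 0.895). The steepest Hoxb slope, -6.48 points per doubling (SE 2.45) at chr11:96161101-96161200, rested on the 43.75% of the control of 20 days, without which it was -1.53. Slopes were 4.07 (SE 3.46) at Hoxa tile chr6:52178101-52178200 and 3.69 (SE 2.18) at Hoxd tile chr2:74567501-74567600, and neither passed; without the null of 20 days the Hoxd slope was -0.12.

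FoxA sites were nearly absent from the clusters. Of 33302 FoxA sites, 1 lay in the windows, at chr6:52103386-52103785 in the first 4 kb of the Hoxa window, that is 0.183 sites per 100 kb, against 1.38 over the span of the RRBS table. Its WGBS level was 3.87% and 2.56% in developmental double nulls and 4.64% and 0.592% in adult double nulls, against 5.52% and 6.91% in controls. All 4 nulls were below both controls, as at 8.85% of the 28654 sites with 6 values, and all 4 were above both at 6.82%. The differences of -3.0 points (SE 1.60, limma adjusted p = 0.384) and -3.60 points (SE 1.79, adjusted p = 0.672) did not pass, where 4.17% of all sites were called higher and 0.246% lower after developmental loss, and 0% in either direction after adult loss. The median difference over all sites was 1.07 points after developmental and -1.25 points after adult loss.

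The site was thus low with FoxA present, and it is not in the authors' deposited list of hyper-methylated sites, which holds 0 sites in a Hox window. That list is far shorter than the set of 33302 FoxA sites, of which only 1 lay in the windows. The 0 and the absence of this site therefore say little about the Hox clusters. The average control level over all FoxA sites was 21.5%, and 29.9% of them were lower than this one. No RRBS tile overlapped the site; the nearest one with 27 values, chr6:52103001-52103100, lies 286 bp away and averaged 10.5% (2.08% to 22.7%). Sites on chromosome 2, and so Hoxd, were not analysed here for adult loss. Peaks of HNF6, a hepatocyte factor whose sites often lie beside those of FoxA, were at 0 in the 4 windows in all 7 lists, which held 1188 to 5767 peaks. The windows cover 545 kb of the 2414725 kb spanned by the RRBS table, so few peaks of such lists would fall there at an even spread. Whether 0 is fewer than elsewhere was not tested. Across the lists the nearest peak was 87.5 kb or more from the Hoxa window, 205 kb from Hoxb, 45.7 kb from Hoxc and 452 kb from Hoxd.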

How the data were processed

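Per the submitters' processing notes, reads were trimmed with Trim Galore 0.3.3 and aligned with BSMAP 2.74 on mm9. The authors deposited methylation as a fraction between 0 and 1 per 100 bp tile (RRBS) or 400 bp FoxA site (WGBS), which was multiplied by 100 here. No coverage is given, so the depth is unknown and no interval was computed; libraries held values at 445198 to 622668 tiles, 935 to 1203 of them Hox tiles. HNF6 peaks were deposited with a fold enrichment per peak and were called with MACS 2.1.1 (control, developmental null) or MACS 1.4.3 (adult null), per the file headers; the fold enrichment only filtered peaks in an alternative. Differences in percent were fitted per tile in limma 3.58.1 (R 4.3.3; moderated statistics, trended prior variance), from group means, with the spread of all 27 libraries in 10 groups and Benjamini-Hochberg adjustment over every tile with a value in all libraries compared. Slopes used the 8 age series libraries and log2 of age. WGBS used all 6 libraries joined by position for adult loss and 4 for developmental loss; the column headed as a developmental null in the adult table equalled control 2 at 28654 common sites and was read only for that check. The authors' averages of 8 groups were not used. Fits were tested on simulated data with larger differences than those of any called Hox tile, added at tiles of intermediate level. How well small differences at low tiles are recovered was not tested. Labels do not always tie libraries to animals, so p-values measure the spread between libraries, which may be technical. Genes and promoters came from RefSeq tables of GRCm38.p6, used for names, order and sequence. Named tiles were those past the threshold (at most 10 a comparison, of which the text gives the leading ones), the highest and most variable tile and the largest difference and slope of each cluster, and every FoxA site or peak in a window. Members, lists and tests were chosen with earlier results of these data known. Alternatives were a logit scale with an offset of 0.01, a minimum of 20 points, the spread of the compared groups alone, tiles with 2 or more libraries a group, a replicate block, other scales of age, medians and leaving out each library; centring each library on its low tiles was added after seeing the data. The files hold no expression, so the cell type given by the labels was not checked by markers.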

Additional observations from a re-analysis of the deposited data

Results flagged for a closer look

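Of 73 groups of 4 age series libraries examined for a library far from the other 3, 5 were picked out, all among controls. Chance picks out about 5% of groups that were not chosen by their values. Most groups here were tiles named from these same values, so that rate is only a guide. At Hoxb tile chr11:96161101-96161200 the control of 20 days was at 43.75% and the other 3 controls at 6.67% to 9.09%. At Hoxb tile chr11:96168001-96168100 the control of 6 months was at 33.3% and the others at 21.4% to 23.1%. At Hoxd tile chr2:74567501-74567600 the control of 4 months was at 18.0% and the others at 22.2% to 23.1%. At Hoxb tile chr11:96093301-96093400 the control of 8 weeks was at 96.9% and the others at 100%, and at Hoxa tile chr6:52179301-52179400 the control of 6 months was at 2.08% and the others at 0%. Where the other controls are equal, as at these tiles, any departure is picked out, however small.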

How the results depend on the processing

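The calls of Hox tiles were few and did not hold under every setting. In the age series the 2 higher tiles became 0 on the logit scale, 0 with a minimum of 20 points and 0 with the spread of the compared groups alone, and 0 to 2 without any 1 library (0 without the control of 20 days or 4 months or the null of 20 days or 8 weeks, 1 without the control of 6 months or the null of 4 months; 2 without the null of 6 months, the Hoxa tile not among them); lower tiles, 0 at first, were 0 to 1 without any 1 library (1 without the control or null of 20 days) and 1 with the replicate block. Same-age libraries of the 2 genotypes deviated together by r = 0.366, 0.0600, 0.109 and 0.149 from 20 days to 6 months, and 3 of the 4 pairs correlated best with their own age, a hint of pairing from the data. The pair of 4 months, at 0.109, correlated better with another age (0.130). The labels give the age but no shared litter or day, and the main fit did not pair libraries by age. The replicate block, run as an alternative, moved no other count of calls by over 1.5 times. In FoxA1L/L;FoxA2L/+ against age series controls, 2 higher tiles became 0 on the logit scale, 0 with 20 points, 0 with the groups' own spread and 0 with centring, and 1 to 5 without 1 library (1 without the first mutant, 5 without the second); 42 lower ones became 0, 0 and 0 under the last 3 settings and 2 to 56 without 1 library, 5 without the first mutant and 2 without the second. In FoxA1L/+;FoxA2L/+, 44 lower tiles became 0, 0 and 0 under those 3 settings and 3 to 57 without 1 library, 3 without 1 mutant, whichever was left out, and higher ones numbered 1 with 2 libraries a group and 0 to 3 without 1 library (1 without the control of 20 days, 3 without the second mutant). Comparisons with 0 calls gave 1 on the logit scale at day 7 (higher), at day 13 (lower) and between the mutants (1 higher, 1 lower), and 1 for the day 7 against day 13 difference with the groups' own spread. Without 1 library, counts of 0 became 1 higher (second day 13 null) and 2 lower (second day 13 control) at day 13 and 2 lower after hepatectomy (second control). Between the mutants they reached 5 higher (1 without the first and 5 without the second FoxA1L/L;FoxA2L/+ liver) and 1 lower (without 1 FoxA1L/+;FoxA2L/+ liver), and for the day 7 against day 13 difference 1 higher (first day 13 null). The slope of Hoxd tile chr2:74567501-74567600 was -0.12 without the null of 20 days and 6.14 without the control of 20 days. Median levels in place of means were 4.72% in Hoxa, 4.85% in Hoxb, 4.42% in Hoxc and 3.64% in Hoxd, and over all tiles of a library Hoxb averaged 11.1%. The cause of these changes was not tested. Coverage is unknown, so small differences at low levels cannot be told from counting error.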
